A study of Mus musculus with 6 samples.

Results

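Chromosome duplication needs proteins that license origins, unwind and copy DNA, supply deoxynucleotides and pack the new strands, and the messenger RNAs of 45 such genes were examined here. They were chosen by symbol, with earlier results of these data known. They span origin licensing, replication fork proteins, nucleotide supply and the E2F and cyclin E control of entry into S phase. All 45 were found among the 25751 gene IDs of the count table, and all 45 passed the filter on low counts that left 14626 genes for testing. RNA captured by its poly(A) tail was sequenced from WT primary myeloid cells of the mouse, all collected at 24 h. In 3 of the 6 libraries the cells had been treated with trimethylamine N-oxide (TMAO), a gut-derived metabolite that the liver makes from trimethylamine. The other 3 were controls, described only as such in the labels. The treated libraries carry the name T-BMDM and the controls do not, and any difference in the origin of the cells would fall together with the treatment. Dose, age and culture of origin were not given. Each p-value therefore reflects how far the 3 libraries of a group differ, a spread that may be technical.

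In each cell cycle the origin recognition complex, with Cdc6 and Cdt1, loads the ring-shaped MCM2-7 helicase onto DNA before S phase. Kinases, among them Cdk2 with cyclin E, then help recruit Cdc45 and the GINS complex, which turn the ring into a moving fork. E2F transcription factors drive many of the genes concerned. Mature macrophages divide little and keep deoxynucleotides low, whereas bone marrow progenitors and precursors of granulocytes and monocytes divide often.

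The libraries held 37759007 to 41735109 counts. Values are in CPM, read counts divided by library totals that were scaled with TMM factors, and log2 fold changes are TMAO over control. Of 11 macrophage markers, 4 were higher and 5 lower, and their summed level was 39546 to 48412 CPM in TMAO and 44058 to 48829.6 CPM in control libraries. Most of that sum was Lyz2, and without it the sums were 6522 to 6789 CPM in TMAO and 8607 to 9197 CPM in control libraries. Lyz2 stood at 37357 ± 4499 CPM in TMAO and 37023 ± 2335 CPM in control libraries (SD, n = 3 each), and Csf1r at 2108 ± 244 CPM in TMAO and 2560.1 ± 85.4 CPM in control libraries. The markers with the lowest fold changes, named after their values were seen, were Mertk at 16.3 ± 3.67 CPM in TMAO and 162 ± 15.8 CPM in control libraries (log2 fold change -3.31), Fcgr1 at 59.9 ± 0.910 CPM in TMAO and 251 ± 27.5 CPM in control libraries (-2.07) and Adgre1 at 526 ± 67.3 CPM in TMAO and 1705 ± 56.5 CPM in control libraries (-1.70). The 4 that were higher were C1qa (log2 fold change 0.75), C1qb (0.67), Mrc1 (0.34) and C1qc (0.22). C1qa averaged 240 ± 45.4 CPM in TMAO and 142 ± 11.7 CPM in control libraries, and C1qb 1101 ± 189 CPM in TMAO and 690 ± 71.9 CPM in control libraries. Of 13 markers of neutrophil precursors, 12 were higher and none lower, and their summed level ran from 4050.4 to 5273 CPM in the TMAO libraries and from 269.8 to 292 CPM in the control libraries. The marker that did not pass, Mmp8, held most of the control sum, at 249.7 ± 25.6 CPM in TMAO and 232 ± 4.55 CPM in control libraries, and without it the sums were 3773 to 5046 CPM in TMAO and 42.9 to 55.7 CPM in control libraries. None of the 13 was at 0 in all 3 libraries of a group, S100a9 averaged 1851 ± 304 CPM in TMAO and 17.4 ± 4.05 CPM in control libraries, and Ngp 1164 ± 80.1 CPM in TMAO and 7.50 ± 1.73 CPM in control libraries. Of 8 stem and progenitor markers, 7 were higher and 1 lower, with sums of 29.7 to 32.0 CPM in TMAO and 7.05 to 8.70 CPM in control libraries. Cd34 averaged 11.6 ± 0.375 CPM in TMAO and 3.32 ± 0.576 CPM in control libraries, and Sox4 4.33 ± 0.648 CPM in TMAO and 1.96 ± 0.140 CPM in control libraries. All 5 monocyte markers were higher, with sums of 987 to 1034 CPM in TMAO and 172 to 222 CPM in control libraries, among them Chil3 at 321 ± 10.2 CPM in TMAO and 8.82 ± 0.601 CPM in control libraries and Ly6c2 at 351 ± 18.6 CPM in TMAO and 159 ± 23.8 CPM in control libraries. The 3 T cell markers were near 0 and untested, Cd3d averaging 0.0348 CPM in TMAO libraries and 0 in control libraries and Cd3g 0.0174 CPM in TMAO libraries and 0 in control libraries. Of the 4 B lineage markers tested, 3 were higher and none lower, with Cd79b at 2.51 ± 0.356 CPM in TMAO and 2.71 ± 0.637 CPM in control libraries and Cd79a at 1.66 ± 0.622 CPM in TMAO and 0.204 ± 0.224 CPM in control libraries. Erythroid markers split, Car2 averaging 3.75 ± 0.576 CPM in TMAO and 0.402 ± 0.0917 CPM in control libraries and Car1 0.223 ± 0.257 CPM in TMAO and 3.10 ± 1.62 CPM in control libraries. The part of these other cell types in the values below was not tested, and in bulk RNA fewer cells of a type and less RNA per cell cannot be told apart.

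Promoter sequences of RefSeq (build GRCm38.p6, 250 bases before to 50 after the annotated start) were held for 37 of the 45 genes, in 43 windows. They were searched on both strands for the E2F letters TTTCCCGC, TTTCGCGC, TTTGCCGC and TTTGGCGC, for the CCAAT box, and for the letters TTTGAA and TTCGAA of the CHR element, which is known from genes of mitosis. Overlapping matches were each counted. These 5 windows are shown because they pair a gene that fell with genes that rose. Capitals mark the E2F letters, and each sequence runs 5′ to 3′ on the strand of the gene, at chr8:75109259-75109558 (plus strand) for Mcm5, chr1:128359656-128359955 (minus) for Mcm6, chr5:138171834-138172133 (minus) for the upstream start of Mcm7, chr12:24708004-24708303 (plus) for Rrm2 and chr16:18811923-18812222 (minus) for Cdc45.
Mcm5: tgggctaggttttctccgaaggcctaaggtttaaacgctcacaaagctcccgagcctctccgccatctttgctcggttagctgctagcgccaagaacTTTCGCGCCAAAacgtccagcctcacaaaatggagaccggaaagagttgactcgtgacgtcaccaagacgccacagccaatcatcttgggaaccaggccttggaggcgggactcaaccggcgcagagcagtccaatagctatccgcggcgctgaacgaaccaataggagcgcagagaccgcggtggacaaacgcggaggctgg
Mcm6: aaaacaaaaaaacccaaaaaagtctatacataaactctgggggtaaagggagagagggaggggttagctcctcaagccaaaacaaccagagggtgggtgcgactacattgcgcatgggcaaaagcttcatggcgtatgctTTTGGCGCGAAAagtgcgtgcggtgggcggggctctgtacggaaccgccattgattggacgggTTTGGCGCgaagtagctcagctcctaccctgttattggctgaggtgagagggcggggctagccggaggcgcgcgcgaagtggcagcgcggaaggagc
Mcm7: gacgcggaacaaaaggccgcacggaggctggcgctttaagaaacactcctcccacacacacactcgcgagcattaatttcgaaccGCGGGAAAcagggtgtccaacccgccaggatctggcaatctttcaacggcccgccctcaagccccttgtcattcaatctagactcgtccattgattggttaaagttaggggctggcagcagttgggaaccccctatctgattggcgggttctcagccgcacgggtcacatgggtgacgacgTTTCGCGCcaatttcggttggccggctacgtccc
Rrm2: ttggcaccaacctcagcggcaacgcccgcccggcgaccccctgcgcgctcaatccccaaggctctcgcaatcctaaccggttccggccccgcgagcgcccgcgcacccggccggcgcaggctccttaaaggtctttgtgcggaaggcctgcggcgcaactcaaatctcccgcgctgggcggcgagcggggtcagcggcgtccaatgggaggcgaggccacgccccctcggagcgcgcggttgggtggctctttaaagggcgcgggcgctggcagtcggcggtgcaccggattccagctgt
Cdc45: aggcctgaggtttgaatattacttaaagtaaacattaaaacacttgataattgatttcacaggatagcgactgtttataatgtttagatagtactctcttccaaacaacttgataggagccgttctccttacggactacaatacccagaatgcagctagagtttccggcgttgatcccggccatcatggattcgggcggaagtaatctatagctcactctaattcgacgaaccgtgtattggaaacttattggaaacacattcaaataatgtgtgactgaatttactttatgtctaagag

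The E2F letters stood in a window of 13 of 37 genes (35.1%, exact 95% binomial interval 20.2 to 52.5%), against 466 of 10213 other genes tested (4.56%) and 2.60% of all 27025 genes with a window. The CCAAT box was in 22 of 37 (59.5%), against 42.8% of the other genes tested and 41.1% of all genes. CHR letters were in 6 of 37 (16.2%), against 16.7% of the other genes tested and 21.7% of all genes. Of the 16 mitosis genes with a window, 1 held the E2F letters, 14 the CCAAT box and 12 the CHR letters (75.0%). Among the replication genes, the E2F letters were present in 6 of 21 genes that rose, 2 of 5 that fell and 5 of 11 that did not pass the test. These counts cover only genes with a window, and Mcm4, Rfc2 and Prim2, which fell, had none. Whether the annotated starts, that of E2f1 among them, are the ones used in these cells was not tested. Mcm5 and Mcm6 both carry overlapping E2F letters read on either strand, and Mcm5 rose while Mcm6 fell. Rrm2 and Cdc45, with the highest fold changes of the 45, held none of the 4 forms in these windows, and Cdc45 held 2 matches to the CHR letters. A match is a description of letters, and these windows do not show whether a factor binds there.

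With TMAO, 23 of the 45 genes were higher and 8 lower by edgeR (quasi-likelihood F test, p adjusted over all 14626 genes tested, threshold 0.05), and 14 did not pass. The background was wide: 33% of all genes tested were called higher, 32.7% lower and 65.7% in either direction. The counts of calls in each role group and list below are to be read beside these shares. The replication genes were called in 68.9% of cases, a share near that background, but in direction 51.1% were higher and 17.8% lower. Because the genes were chosen with earlier results of these data known, this skew is a description and was not tested. At least 2-fold and called, 11 were higher and 1 lower, with backgrounds of 15.7% and 14.7%. In 33 of the 45, every TMAO library lay on one side of every control library, beside 71% of all genes tested. Their median log2 fold change was 0.39, against 0.0050 over all genes tested, and single genes ran from -1.04 for Pola1 to 2.53 for Rrm2. The median CPM of the 45 genes was 13.6, 15.4 and 14.5 in the TMAO libraries, against 8.47, 10.03 and 8.16 in the control libraries. Their summed level was 968, 963 and 975 CPM in the TMAO libraries, against 857, 893 and 814 CPM in the control libraries, so the groups did not overlap on either measure. Within its group, control replicate 3 had the lowest value in 25 of the 45 genes. Among TMAO libraries the lowest value fell to replicate 1 in 18, to replicate 2 in 15 and to replicate 3 in 12. Ordered by level per kilobase of transcript, the 45 genes ran from Pcna, Cdt1 and Mcm3 at the top to Cdc6, Orc1 and Fen1 at the bottom in TMAO libraries. In control libraries they ran from Pcna, Cdt1 and Gins4 to Ung, Pole and Orc1. Of the 44 neighbouring pairs in that order, the ranges of 38 overlapped in TMAO and of 33 in control libraries.

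**Figure D1:**
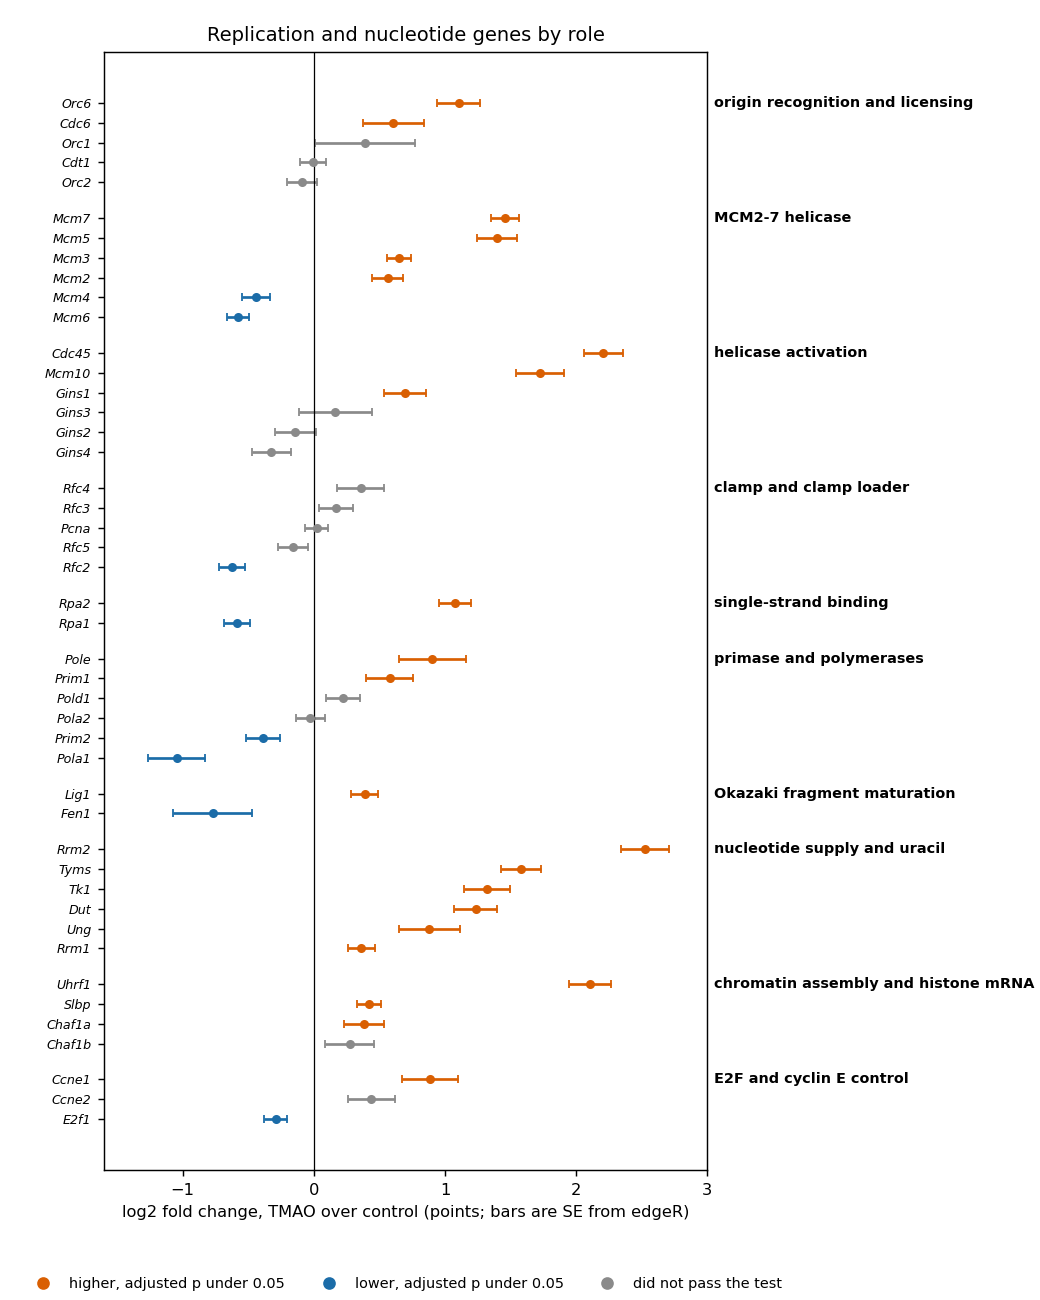
Log2 fold changes (x axis, TMAO over control) of the 45 genes, grouped by role down the page, with bars for the SE from edgeR; orange points were higher, blue lower and grey did not pass the test. All 6 nucleotide supply and uracil genes lie right of 0, from 0.36 to 2.53, while the MCM2-7 genes lie on both sides, from -0.57 to 1.46.

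All 6 genes of nucleotide supply and uracil removal rose, none with overlapping groups, and their median log2 fold change was 1.28. Of all genes tested, 33% were called higher and 71% had groups that did not overlap. Rrm2 (ENSMUSG00000020649), the S-phase small subunit of ribonucleotide reductase, which makes deoxynucleotides from ribonucleotides, had 22.02, 17.7 and 18.7 CPM in the TMAO libraries, against 3.81, 3.87 and 2.47 CPM in the control libraries. It was 5.76-fold higher (log2 fold change 2.53, SE 0.18, edgeR adjusted p = 1.24e-06). Rrm1, the large subunit of the same enzyme, had 35.2, 32.5 and 39.5 CPM in the TMAO libraries, against 27.1, 27.5 and 28.8 CPM in the control libraries. Its rise was small (log2 fold change 0.36, SE 0.10, edgeR adjusted p = 0.00835), and without TMAO replicate 3, its highest library, it missed the threshold (log2 fold change 0.29, edgeR adjusted p = 0.0529). Tyms, thymidylate synthase, which makes dTMP from dUMP, had 7.64, 9.19 and 7.67 CPM in the TMAO libraries, against 2.88, 2.56 and 2.74 CPM in the control libraries. Every TMAO library was above every control library (log2 fold change 1.58, SE 0.15, edgeR adjusted p = 8.41e-06). Tk1, the cytosolic thymidine kinase of S phase, had 13.2, 14.0 and 14.4 CPM in the TMAO libraries, against 5.79, 4.08 and 6.81 CPM in the control libraries. Its control values spread more than its TMAO values, and the groups stayed apart (log2 fold change 1.32, SE 0.18, edgeR adjusted p = 8.38e-05). Dut, which removes dUTP and so yields dUMP for Tyms, averaged 12.8 ± 2.40 CPM in TMAO and 5.43 ± 0.513 CPM in control libraries (log2 fold change 1.23, edgeR adjusted p = 7.28e-05). Ung, the glycosylase that cuts uracil out of DNA, was the lowest of these genes at 2.27 ± 0.391 CPM in TMAO and 1.23 ± 0.0858 CPM in control libraries (log2 fold change 0.88, edgeR adjusted p = 0.00659).

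Of 16 other deoxynucleotide genes, in a list that holds none of the 45, 5 rose and 9 fell, with a median log2 fold change of -0.33. That was 87.5% called, beside 65.7% of all genes tested. Nme1, a nucleoside diphosphate kinase, was higher (log2 fold change 0.88, SE 0.22, edgeR adjusted p = 0.00506). Samhd1, which breaks down deoxynucleotides and is known for restricting viruses in myeloid cells, had 122, 125 and 121 CPM in the TMAO libraries, against 468, 413 and 406 CPM in the control libraries. The libraries of each group lay close together, and Samhd1 fell by 1.81 on the log2 scale (SE 0.088, edgeR adjusted p = 9.41e-08). Dck, the deoxycytidine kinase of nucleoside salvage, was also lower, at 13.5 ± 1.07 CPM in TMAO and 46.6 ± 2.99 CPM in control libraries (log2 fold change -1.78, SE 0.10, edgeR adjusted p = 2.89e-07). Among genes named after their values were seen, Rrm2b, the p53-inducible small subunit that serves resting cells, averaged 6.18 ± 0.913 CPM in TMAO and 17.8 ± 1.52 CPM in control libraries (log2 fold change -1.52, edgeR adjusted p = 6.83e-06). The mitochondrial kinase gene Tk2 averaged 27.0 ± 0.791 CPM in TMAO and 38.4 ± 1.54 CPM in control libraries (log2 fold change -0.51, edgeR adjusted p = 0.0005).

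Ratios per kilobase of the longest annotated transcript put the paired genes on one scale. Rrm2 over Rrm2b was 6.48, 5.89 and 7.42 in the TMAO libraries, against 0.462, 0.482 and 0.263 in the control libraries, so the more abundant small-subunit transcript was Rrm2 in all 3 TMAO libraries and Rrm2b in all 3 control libraries. With merged exons as the length, the mean ratio was 10.5 in TMAO and 0.638 in control libraries. Rrm1 over Rrm2 was 0.640, 0.736 and 0.846 in the TMAO libraries, against 2.85, 2.85 and 4.66 in the control libraries. Tk1 over Tk2 was 0.470, 0.518 and 0.503 in the TMAO libraries, against 0.140, 0.103 and 0.178 in the control libraries, with Tk2 the higher of the pair throughout. Each of these ratios separated the groups, and an exact two-sided permutation test gave p = 0.1 for each, which is the smallest p that 3 against 3 libraries allow. In all, 11 such ratios within pairs or complexes were computed, chosen after the values were seen, and adjusted over the 11 the smallest p was 0.122. The groups overlapped in 2 of the 11: Chaf1b over Chaf1a averaged 3.10 in TMAO and 3.31 in control libraries (exact permutation p = 0.8), and Ccne1 over Ccne2 1.66 in TMAO and 1.19 in control libraries (exact permutation p = 0.2).

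**Figure D2:**
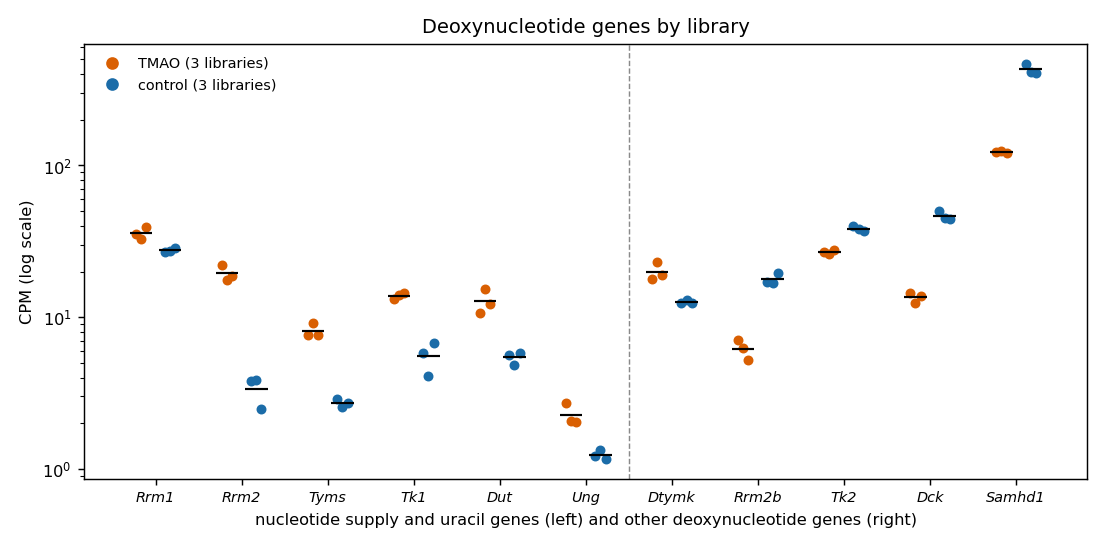
CPM on a log axis of 11 deoxynucleotide genes in each TMAO library (orange, left of each pair) and control library (blue), with black bars for group means. Rrm2, Tyms, Tk1, Dut, Ung and Dtymk are higher in every TMAO library. Rrm2b, Tk2, Dck and Samhd1 are lower in every TMAO library, Samhd1 averaging 123 CPM in TMAO and 429 CPM in control libraries. The genes right of the dashed line were picked from the 16 other deoxynucleotide genes, of which 5 rose and 9 fell.

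The helicase ring contains 1 copy of each of its 6 subunits, yet their transcripts changed in opposite directions: 4 rose and 2 fell, and no gene had overlapping groups. The background was 33% higher, 32.7% lower and 71% without overlap among all genes tested. Mcm7 (ENSMUSG00000029730) had 30.7, 27.2 and 29.9 CPM in the TMAO libraries, against 10.5, 11.4 and 10.005 CPM in the control libraries. Its groups were far apart (log2 fold change 1.46, SE 0.11, edgeR adjusted p = 1.43e-06). Mcm5 (ENSMUSG00000005410) had 43.8, 32.8 and 38.1 CPM in the TMAO libraries, against 15.001, 16.99 and 11.6 CPM in the control libraries. The lowest TMAO library was above the highest control library (log2 fold change 1.40, SE 0.15, edgeR adjusted p = 2.33e-05). Mcm3 had 50.1, 46.2 and 50.7 CPM in the TMAO libraries, against 30.9, 32.8 and 29.8 CPM in the control libraries. That was a change of 1.57-fold, with little spread in either group (log2 fold change 0.65, SE 0.090, edgeR adjusted p = 0.000108). Mcm2, whose tail also binds histones, had 27.3, 21.02 and 24.95 CPM in the TMAO libraries, against 16.5, 17.1 and 16.0 CPM in the control libraries. It was higher in each TMAO library (log2 fold change 0.56, SE 0.12, edgeR adjusted p = 0.00166). Mcm6 (ENSMUSG00000026355) had 42.9, 40.7 and 44.1 CPM in the TMAO libraries, against 63.7, 64.6 and 61.9 CPM in the control libraries. It was the highest of the 6 in every control library on the CPM scale, and it fell (log2 fold change -0.57, SE 0.084, edgeR adjusted p = 0.00016). Mcm4 had 19.4, 19.9 and 18.4 CPM in the TMAO libraries, against 27.1, 23.4 and 27.7 CPM in the control libraries. It fell as well (log2 fold change -0.44, SE 0.10, edgeR adjusted p = 0.00361). All 6 changes kept their direction and their calls when any single library was left out. Tested against a fold of 1.5, the calls of Mcm5 and Mcm7 held, and those of Mcm2, Mcm3, Mcm4 and Mcm6 did not.

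Per kilobase of transcript, the control libraries held Mcm6 at 14.6 ± 0.307 CPM per kb and Mcm7 at 3.59 ± 0.239 CPM per kb, the highest and the lowest of the ring. In TMAO libraries Mcm6 was at 9.78 ± 0.398 and Mcm7 at 9.88 ± 0.624 CPM per kb, which lie within each other's SD, and the ends of the order were Mcm3 at 14.3 ± 0.708 and Mcm4 at 5.35 ± 0.221 CPM per kb. The lower end depends on the length used: with merged exons Mcm2 was lowest, at 3.51 CPM per kb in TMAO and 2.38 CPM per kb in control libraries, where Mcm7 stood at 6.61 CPM per kb in TMAO and 2.41 CPM per kb in control libraries. Mcm5 stood at 11.3 ± 1.63 CPM per kb in TMAO and 4.30 ± 0.809 CPM per kb in control libraries, and Mcm2 at 6.99 ± 0.908 CPM per kb in TMAO and 4.73 ± 0.153 CPM per kb in control libraries. Control levels of Mcm2 and Mcm5 lay within their spread of each other. The ratio of the highest to the lowest subunit level in a library was 2.70, 2.43 and 2.89 in the TMAO libraries, against 4.12, 3.85 and 4.21 in the control libraries. Mcm6 over Mcm7 was 0.950, 1.02 and 1.004 in the TMAO libraries, against 4.12, 3.85 and 4.21 in the control libraries. With merged exons as length it averaged 1.38 in TMAO and 5.66 in control libraries. The coefficient of variation across the 6 levels averaged 33.2% in TMAO and 57.2% in control libraries. By the longest transcript, the highest over lowest ratio and Mcm6 over Mcm7 did not overlap between groups (exact two-sided permutation p = 0.1 each, the smallest the design allows). In every control library these ratios are the same value, with Mcm6 highest and Mcm7 lowest, so they are not separate results. Both were among the ratios chosen after the values were seen. The summed CPM of the 6 genes was 214, 188 and 206 CPM in the TMAO libraries, against 164, 166 and 157 CPM in the control libraries, without overlap.

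**Figure D3:**
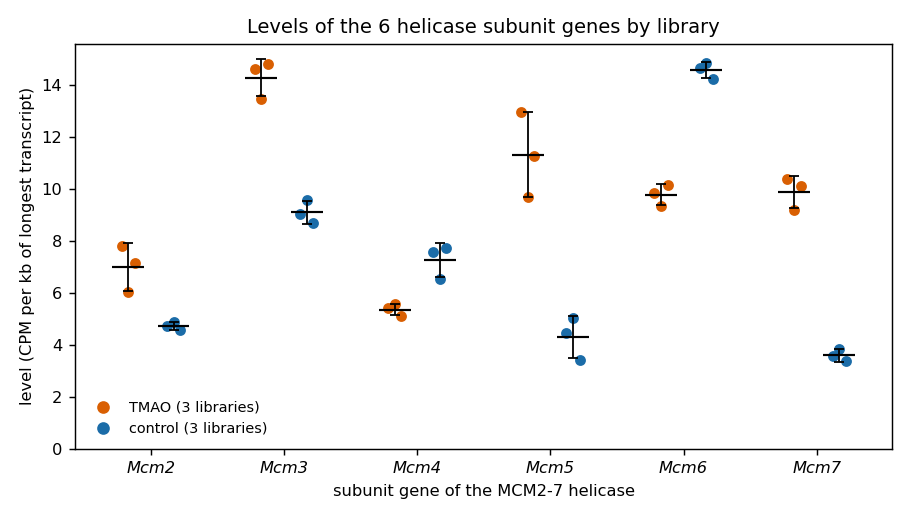
Level of each MCM2-7 gene in CPM per kb of its longest transcript (y axis) in each TMAO library (orange) and control library (blue), with black lines for the mean and SD over 3 libraries. Levels span 5.35 to 14.3 CPM per kb in TMAO and 3.59 to 14.6 CPM per kb in control libraries, and Mcm4 and Mcm6 are the subunits that are lower with TMAO.

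Of the 5 genes that mark origins and load the ring, 2 rose, none fell and 3 did not pass. Orc6, a subunit of the origin recognition complex, had 11.5, 17.2 and 14.5 CPM in the TMAO libraries, against 7.13, 5.90 and 6.98 CPM in the control libraries. Each TMAO library was above every control library (log2 fold change 1.11, SE 0.16, edgeR adjusted p = 0.000176). Orc2, another subunit, had 18.6, 18.2 and 22.8 CPM in the TMAO libraries, against 20.6, 20.8 and 21.996 CPM in the control libraries. The groups overlapped (log2 fold change -0.090, SE 0.11, edgeR adjusted p = 0.51), and 29.8% of its exon bases are shared with Nif3l1 on the other strand. Cdt1, the loading factor that geminin holds back, was at 43.6 ± 0.643 CPM in TMAO and 43.8 ± 5.03 CPM in control libraries and did not pass (edgeR adjusted p = 0.958). With the trend on GC content removed, Cdt1 was called lower (log2 fold change -0.30, edgeR adjusted p = 0.0117). Cdc6, its partner in loading, was low, at 3.38 ± 0.253 CPM in TMAO and 2.22 ± 0.624 CPM in control libraries, and passed (edgeR adjusted p = 0.0402). That call was lost without TMAO replicate 2 (edgeR adjusted p = 0.0719), TMAO replicate 3 (0.115) or control replicate 3 (0.126), and with the GC trend removed (0.0672). Orc1, the subunit that comes and goes with the cycle, was at 1.48 ± 0.120 CPM in TMAO and 1.13 ± 0.673 CPM in control libraries with overlapping groups (edgeR adjusted p = 0.39). Control replicate 3 held 1.89 CPM, above every other library, and without it Orc1 was called higher (log2 fold change 0.98, edgeR adjusted p = 0.0252).

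Of the 6 genes that activate the ring, 3 rose, none fell and 3 did not pass. Cdc45 (ENSMUSG00000000028), which binds the ring to start unwinding, had 15.2, 15.7 and 14.97 CPM in the TMAO libraries, against 3.14, 3.94 and 2.83 CPM in the control libraries. The 3 TMAO values lay close together, and Cdc45 was 4.62-fold higher (log2 fold change 2.21, SE 0.15, edgeR adjusted p = 7.81e-07). Mcm10, which acts at the same step and is no part of the ring, averaged 7.59 ± 0.541 CPM in TMAO and 2.30 ± 0.492 CPM in control libraries (log2 fold change 1.72, edgeR adjusted p = 1.82e-05). The GINS complex, 4 subunits that join Cdc45, did not move as 1 unit. Gins1 averaged 5.81 ± 0.542 CPM in TMAO and 3.58 ± 0.414 CPM in control libraries and rose (edgeR adjusted p = 0.00284), but it was not called after removal of the length trend (log2 fold change 0.19, edgeR adjusted p = 0.258). Gins4 had 13.6, 21.04 and 17.9 CPM in the TMAO libraries, against 21.6, 23.1 and 21.003 CPM in the control libraries. TMAO replicate 2 reached the lowest control value, so the groups overlapped (log2 fold change -0.32, SE 0.15, edgeR adjusted p = 0.0794). Without that library Gins4 was called lower (log2 fold change -0.47, edgeR adjusted p = 0.0122), as it was after removing the length trend (log2 fold change -0.82, edgeR adjusted p = 0.000106), with the GC trend removed (0.025), with library size only (0.0429) and with no count filter (0.0261). Gins3 was at 3.37 ± 1.30 CPM in TMAO and 2.9997 ± 0.648 CPM in control libraries (edgeR adjusted p = 0.622). Gins2 was at 5.34 ± 0.207 CPM in TMAO and 5.90 ± 0.964 CPM in control libraries (edgeR adjusted p = 0.439), and 67.3% of its exon bases are shared with Gse1 on the other strand, which fell (log2 fold change -2.21).

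Of the sliding clamp and its loader, none of 5 genes was called higher, 1 was lower and 4 did not pass. Pcna (ENSMUSG00000027342), the clamp that tethers polymerases, had 249, 245 and 240.3 CPM in the TMAO libraries, against 244, 263 and 216 CPM in the control libraries. The TMAO values lay inside the control range (log2 fold change 0.021, SE 0.091, edgeR adjusted p = 0.851). Per kilobase it was the highest of the 45 in both groups, at 161 ± 2.71 CPM per kb in TMAO and 159 ± 15.6 CPM per kb in control libraries. After removal of the length trend, Pcna was called lower (log2 fold change -0.43, edgeR adjusted p = 0.000508), and its processed pseudogene Pcna-ps2 held 264 counts in all 6 libraries together. Rfc2, a loader subunit, had 30.9, 37.4 and 35.9 CPM in the TMAO libraries, against 52.2, 56.6 and 51.8 CPM in the control libraries. It was lower in each TMAO library (log2 fold change -0.62, SE 0.10, edgeR adjusted p = 0.000306), and 15.1% of its exon bases lie opposite Lat2, which fell too (log2 fold change -0.65). Rfc4 had 3.33, 4.07 and 3.21 CPM in the TMAO libraries, against 2.98, 2.71 and 2.59 CPM in the control libraries. Its TMAO values were all above its control values, but it did not pass (log2 fold change 0.36, SE 0.18, edgeR adjusted p = 0.102). With the GC trend removed Rfc4 was called higher (log2 fold change 0.45, edgeR adjusted p = 0.0425). Rfc3 averaged 13.1 ± 1.14 CPM in TMAO and 11.7 ± 1.44 CPM in control libraries (edgeR adjusted p = 0.281) and Rfc5 15.5 ± 0.963 CPM in TMAO and 17.3 ± 1.67 CPM in control libraries (edgeR adjusted p = 0.253). With the GC trend removed Rfc5 was called lower (edgeR adjusted p = 0.0359).

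Replication protein A, which coats single-stranded DNA, split between its subunits, with Rpa2 and Rpa3 higher and Rpa1 lower. Rpa3, outside the 45 genes and named after its value was seen, averaged 6.92 ± 1.32 CPM in TMAO and 4.95 ± 0.619 CPM in control libraries (log2 fold change 0.48, edgeR adjusted p = 0.0314). Rpa2, the middle subunit, had 18.0, 18.3 and 19.97 CPM in the TMAO libraries, against 8.47, 10.03 and 8.16 CPM in the control libraries. The groups did not overlap (log2 fold change 1.08, SE 0.12, edgeR adjusted p = 2.81e-05). Rpa1, the large DNA-binding subunit, had 28.1, 32.0 and 26.7 CPM in the TMAO libraries, against 41.4, 43.5 and 45.01 CPM in the control libraries. Each TMAO library was below every control library (log2 fold change -0.58, SE 0.099, edgeR adjusted p = 0.000449). Per kilobase, Rpa1 over Rpa2 was 0.559, 0.623 and 0.477 in the TMAO libraries, against 1.75, 1.55 and 1.97 in the control libraries, without overlap (exact two-sided permutation p = 0.1, the smallest possible). This ratio was among the 11 chosen after the values were seen, so its separation is no independent result. Adjusted over the 11, its permutation p was 0.122.

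Primase and the replicative polymerases moved both ways, 2 of 6 higher and 2 lower. Pole (ENSMUSG00000007080), the catalytic subunit of the leading-strand polymerase, had 6.58, 4.84 and 4.33 CPM in the TMAO libraries, against 3.83, 1.98 and 2.62 CPM in the control libraries. The lowest TMAO library was above the highest control library (log2 fold change 0.90, SE 0.25, edgeR adjusted p = 0.00928). Pola1 (ENSMUSG00000006678), the catalytic subunit of polymerase alpha that extends primers, had 6.58, 3.44 and 4.04 CPM in the TMAO libraries, against 9.98, 8.87 and 10.2 CPM in the control libraries. TMAO replicate 1 lay nearest to the controls, and Pola1 had the lowest fold change of the 45 (log2 fold change -1.04, SE 0.22, edgeR adjusted p = 0.00171). Its partner Pola2 was at 16.3 ± 1.33 CPM in TMAO and 16.6 ± 0.892 CPM in control libraries (edgeR adjusted p = 0.846). Prim1, the catalytic subunit of primase, averaged 5.33 ± 0.654 CPM in TMAO and 3.57 ± 0.610 CPM in control libraries (log2 fold change 0.58, edgeR adjusted p = 0.0151). Without TMAO replicate 2 (edgeR adjusted p = 0.0512) or control replicate 2 (0.0624) it missed the threshold. Prim2, its regulatory partner, had 6.94, 7.73 and 8.06 CPM in the TMAO libraries, against 10.6, 10.03 and 9.04 CPM in the control libraries. It fell slightly (log2 fold change -0.39, SE 0.13, edgeR adjusted p = 0.0226), a call that was lost without TMAO replicate 1 (edgeR adjusted p = 0.0543), control replicate 1 (0.0864) or control replicate 2 (0.0609), and with the GC trend removed (0.112). Per kilobase, Prim2 over Prim1 was 1.81, 1.63 and 2.06 in the TMAO libraries, against 3.26, 4.35 and 3.22 in the control libraries. Pola2 over Pola1 was 4.16, 9.27 and 7.75 in the TMAO libraries, against 2.90, 3.62 and 3.0504 in the control libraries. With merged exons as length, Prim2 over Prim1 averaged 0.933 in TMAO and 1.84 in control libraries, so which of the 2 is the higher transcript with TMAO depends on the length used. Pold1, the lagging-strand polymerase, was at 14.97 ± 1.89 CPM in TMAO and 12.8 ± 0.964 CPM in control libraries and did not pass (edgeR adjusted p = 0.148).

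The enzymes that finish Okazaki fragments were called in opposite directions. Lig1, the ligase that seals them, had 18.1, 20.2 and 19.2 CPM in the TMAO libraries, against 14.5, 14.2 and 15.2 CPM in the control libraries. It rose modestly (log2 fold change 0.39, SE 0.10, edgeR adjusted p = 0.00677), and the call was lost with the GC trend removed (edgeR adjusted p = 0.147). Fen1, the flap endonuclease, had 1.34, 0.633 and 1.25 CPM in the TMAO libraries, against 1.72, 1.79 and 2.01 CPM in the control libraries. It was called lower (log2 fold change -0.77, SE 0.30, edgeR adjusted p = 0.0429), but rests on 348 counts over the 6 libraries. The call was lost when TMAO replicate 2, TMAO replicate 3 or any control library was left out (edgeR adjusted p = 0.0696, 0.071 and 0.109 without control replicates 1, 2 and 3, 0.111 without TMAO replicate 2 and 0.0609 without TMAO replicate 3). Of the exon bases of Fen1, 78.8% are shared with the antisense gene Gm10143, which held 46 counts over the 6 libraries. Tmem258, also on the other strand, shares 5.37% of them and held 24483 counts (log2 fold change 1.03, edgeR adjusted p = 7.83e-06). The strand setting of the counting was not given, so reads from such pairs cannot be told apart, and the level of Fen1 is uncertain.

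Genes that rebuild chromatin behind the fork were higher in 3 of 4 cases. Uhrf1 (ENSMUSG00000001228), which brings the maintenance DNA methyltransferase to newly copied DNA, had 20.9, 15.2 and 17.8 CPM in the TMAO libraries, against 4.63, 4.33 and 3.56 CPM in the control libraries. It was 4.31-fold higher (log2 fold change 2.11, SE 0.16, edgeR adjusted p = 1.82e-06). Slbp, which binds the stem-loop of replication-dependent histone mRNAs, averaged 28.5 ± 1.27 CPM in TMAO and 21.2 ± 0.454 CPM in control libraries (log2 fold change 0.42, edgeR adjusted p = 0.00216). Chaf1b, a subunit of the histone chaperone CAF-1, had 8.33, 10.4 and 11.4 CPM in the TMAO libraries, against 7.85, 10.5 and 6.56 CPM in the control libraries. Its groups overlapped (log2 fold change 0.28, SE 0.19, edgeR adjusted p = 0.218), and it was called higher only without control replicate 2 (edgeR adjusted p = 0.0443) among the alternatives run. Chaf1a, the large subunit, averaged 8.96 ± 1.57 CPM in TMAO and 6.87 ± 0.425 CPM in control libraries and passed narrowly (edgeR adjusted p = 0.048). That call was lost without TMAO replicate 1 or 3 (edgeR adjusted p = 0.0587 and 0.212), without control replicate 1, 2 or 3 (0.14, 0.112 and 0.0684), with library size only (0.0744), with no count filter (0.0704), by limma-voom (0.053) and with the GC trend removed (0.26). Ubxn6 on the other strand shares 52.5% of its exon bases.

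In the control of S-phase entry, a cyclin E gene rose and E2f1 fell. Ccne1, which with Cdk2 starts S phase, had 3.51, 4.57 and 4.02 CPM in the TMAO libraries, against 1.80, 2.75 and 1.96 CPM in the control libraries. Its groups did not overlap (log2 fold change 0.89, SE 0.21, edgeR adjusted p = 0.00389). Ccne2, the other cyclin E, had 4.16, 3.88 and 3.10 CPM in the TMAO libraries, against 2.65, 2.71 and 2.86 CPM in the control libraries. All TMAO values were above all control values, yet it narrowly missed the threshold (log2 fold change 0.44, SE 0.18, edgeR adjusted p = 0.051). Ccne2 was called higher with RLE size factors (edgeR adjusted p = 0.0492), with upper quartile scaling (0.0385), with a filter of 1 CPM in 3 libraries (0.0453), with the newer moderation (0.0496), without the 20 most abundant genes (0.0466), with the GC trend removed (0.00159) and without TMAO replicate 3 (0.0346). E2f1 (ENSMUSG00000027490), an activator of S-phase genes, had 28.3, 28.8 and 30.8 CPM in the TMAO libraries, against 36.0, 35.4 and 36.1 CPM in the control libraries. The fall was small, and the groups stayed apart (log2 fold change -0.29, SE 0.087, edgeR adjusted p = 0.0131). Of 21 other E2F and G1/S regulators, 9 rose and 10 fell (90.5% called, beside 65.7% of all genes tested). Ccna2, the cyclin of S phase and early mitosis, rose 13.6-fold (log2 fold change 3.76, SE 0.17, edgeR adjusted p = 6.73e-08), and E2f7, a repressor E2F, rose as well (log2 fold change 2.50, SE 0.36, edgeR adjusted p = 0.00015). Cdkn1c, a Cdk inhibitor, was lower, at 2.61 ± 0.391 CPM in TMAO and 16.4 ± 1.37 CPM in control libraries (log2 fold change -2.65, SE 0.15, edgeR adjusted p = 2.77e-07). Rbl2, the pocket protein that holds E2F targets down in resting cells, was lower, at 11.3 ± 1.90 CPM in TMAO and 40.6 ± 4.21 CPM in control libraries (log2 fold change -1.85, SE 0.14, edgeR adjusted p = 1.67e-06). Among genes named after their values were seen, the other pocket protein genes Rb1 and Rbl1 had log2 fold changes of -0.97 and -1.01 (edgeR adjusted p = 1.6e-05 and 2.47e-05). The activator E2f2 had one of 1.58 and the Cdk inhibitor gene Cdkn1a one of 1.97 (edgeR adjusted p = 6.63e-06 and 6.33e-08).

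A wider list of 34 other fork and origin genes also moved both ways: 14 rose and 7 fell, with a median log2 fold change of 0.20. With 61.8% called, the list was near the 65.7% of all genes tested. Ticrr, which helps load Cdc45, rose 6.31-fold (log2 fold change 2.66, SE 0.31, edgeR adjusted p = 3.1e-05), and Clspn, a fork checkpoint mediator, rose 3.96-fold (log2 fold change 1.98, SE 0.19, edgeR adjusted p = 7.79e-06). Dna2, a nuclease and helicase, fell (log2 fold change -1.44, SE 0.13, edgeR adjusted p = 6.1e-06), as did Atad5, which unloads Pcna (log2 fold change -1.32, SE 0.24, edgeR adjusted p = 0.00075). Rfc1, the large subunit of the clamp loader, named after its value was seen, averaged 25.5 ± 2.15 CPM in TMAO and 61.7 ± 4.16 CPM in control libraries (log2 fold change -1.27, edgeR adjusted p = 2.24e-06). Of the mitosis genes, all 19 rose at least 2-fold, beside 15.7% of all genes tested, with a median log2 fold change of 2.91. Ccnb2, a mitotic cyclin, rose 42.6-fold and the survivin gene Birc5 25.7-fold, and the smallest changes were 1.22 for Cenpe and 1.43 for Bub1b on the log2 scale. The summed CPM of the mitosis genes over that of the MCM2-7 genes was 2.54, 2.77 and 2.33 in the TMAO libraries, against 0.471, 0.443 and 0.481 in the control libraries.

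**Figure D4:**
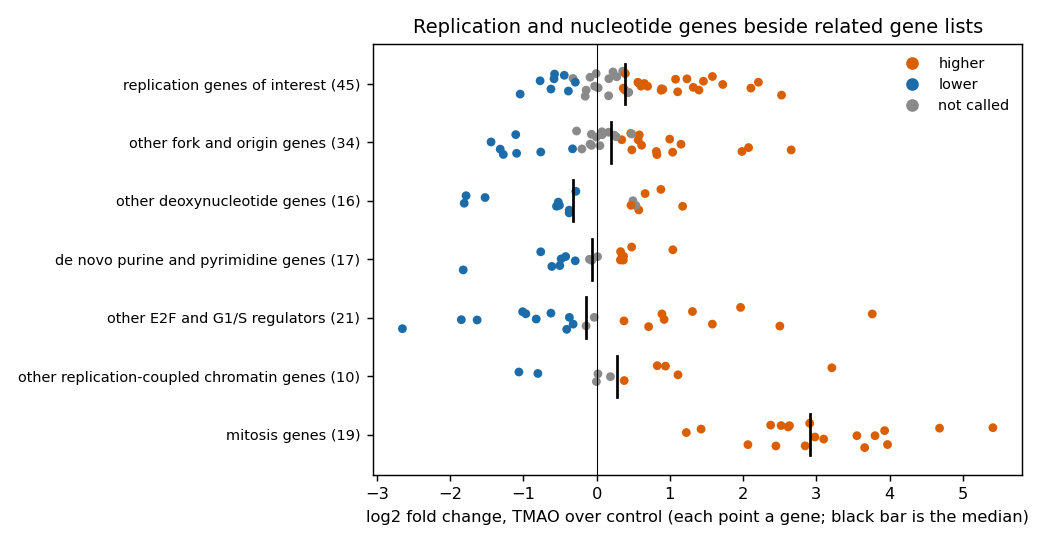
Log2 fold changes (x axis, TMAO over control) of single genes in the 45 replication and nucleotide genes (top) and in related lists that hold none of them, with black bars for medians; orange was higher, blue lower, grey not called. The median is 0.39 for the 45 genes, -0.33 for other deoxynucleotide genes and 2.91 for mitosis genes.

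Over all genes tested, fold change moved with transcript length. Among the 20% with the shortest transcripts the median log2 fold change was 0.49, and among the 20% with the longest it was -0.53. The 8 genes that fell had longest transcripts of 2373 to 5346 bases (median 3972), and the 23 that rose had 1087 to 7698 bases (median 3128). In the same 5 length classes, from short to long, the replication genes had median log2 fold changes of 0.36 (n = 5), 1.08 (n = 9), 0.41 (n = 16), -0.090 (n = 9) and -0.11 (n = 6). In the longest class 3 rose (Rrm1, Pole and Chaf1a) and 3 fell (Pola1, Rpa1 and Rfc2), and in the shortest 2 of 5 rose (Gins1 and Orc6) and none fell. With the length trend removed, 22 genes were higher and 10 lower, and with the GC trend removed the counts were also 22 and 10.

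**Figure D5:**
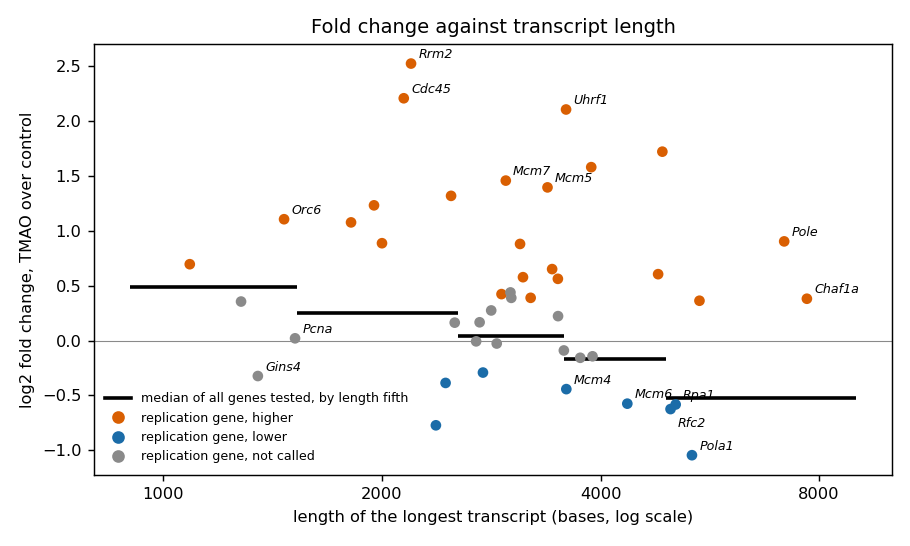
Log2 fold change (y axis, TMAO over control) against the length of the longest transcript (x axis, log scale) for the 45 genes, coloured by call, with black bars for the median of all genes tested in each of 5 length classes (outer bars end at the plotted range). The bars descend from 0.49 to -0.53, and the replication genes lie on both sides of them: Pola1, Rpa1 and Rfc2 are long and lower, Pole is long and higher, Orc6 is short and higher, and Pcna and Gins4 are short and not called.

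Some genes share 10% or more of their exon bases with a counted gene on the opposite strand: Ccne2, Chaf1a, Fen1, Gins2, Orc1, Orc2, Rfc2, Rfc4 and Rfc5. Of these 9, 1 was called higher and 2 lower (33.3% called, beside 65.7% of all genes tested). Among the other 36 genes, 22 were higher and 6 lower (77.8% called), with a median log2 fold change of 0.57, a split chosen after the data were seen. Smaller overlaps remain among the 36, some with abundant neighbours. Vps35 (58032 counts) shares 6.93% of the exon bases of Orc6 (2442 counts). Ufd1 (13605 counts) shares 5.96% of those of Cdc45 (2150 counts), and Ap4m1 (2042 counts) 7.25% of those of Mcm7 (4646 counts). The strand setting was not given, and the part of the neighbours in these values was not tested.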

How the data were processed

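RNA-seq was analysed in 6 libraries of primary mouse myeloid cells, 3 TMAO and 3 control, grouped by their titles. The authors deposited raw counts per Ensembl gene, as whole numbers without normalization. Per the submitters' processing notes, reads were placed on GRCm39. The aligner, counter, strand setting and annotation release were not given in the sources used here. Symbols, lengths and GC content came from GENCODE M21 (GRCm38), matched by gene ID: 25386 of 25751 IDs had a symbol. The members, the lists and the rule for named genes (role extremes, called list extremes of at least 1 CPM and the most abundant markers) were chosen with earlier results of these data known. Of the 7 B lineage markers, 1 is not analysed here, and 1 gene that the rule names is not reported here.

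Genes were tested with edgeR 4.0.16 (R 4.3.3): filterByExpr with a minimum count of 10, TMM factors, a quasi-likelihood F test without covariates and Benjamini-Hochberg adjustment over all genes tested, at a threshold of 0.05. The SE is the log2 fold change divided by the square root of F. Totals of 37759007 to 41735109 counts set the counting precision. The binomial interval on promoter windows covers the number of genes only, and each SE includes the spread between libraries. Alternatives were DESeq2 1.42.0, limma 3.58.1 (voom), other scalings, filters and moderations, a test against a fold of 1.5, smooth offsets (loess, span 0.5) on length or GC content, the replicate number as a block and leaving out each library.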

Additional observations from a re-analysis of the deposited data

How the results depend on the processing

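Under 19 of 20 alternative fits, all but the test against a fold of 1.5, between 21 and 24 of the 45 genes were higher and between 6 and 10 lower (main values 23 and 8), and the median log2 fold change ran from 0.31 to 0.42. Tested against a fold of 1.5, 11 were higher and 1 lower (backgrounds 18% and 17.5% of all genes). That test called 1 licensing, 2 MCM2-7, 2 helicase activation, 0 clamp, 1 single-strand binding and 1 polymerase gene. It also called 0 Okazaki, 4 nucleotide supply and uracil, 1 chromatin and 0 E2F and cyclin E genes. Of the related lists, the other fork list had 12 calls, the other deoxynucleotide list 4 and the de novo synthesis list 3. A stricter null calls fewer genes by construction. The clamp group had 2 calls with the length trend removed and 3 with the GC trend removed (main 1), and the Okazaki group 1 with the GC trend removed (main 2); the cause was not tested. Leaving out 1 library gave 1 to 2 licensing, 2 to 4 polymerase and 1 to 2 Okazaki calls. With merged exons as length, the highest over lowest MCM2-7 level was 3.75 in TMAO and 5.75 in control libraries, where the longest transcript gave 2.67 in TMAO and 4.06 in control libraries. E2F letters were in 27.0% of the genes when the middle bases had to be CG or GG. Log2 fold changes turned sign only in genes that had not passed, named here with the setting: Cdt1 at 0.023 (upper quartile scaling), 0.0053 (a filter of 1 CPM in 3 libraries), 0.0016 (the 20 most abundant genes left out), 0.0051 (without TMAO replicate 2) and 0.080 (without control replicate 2), Gins3 at -0.022 (length trend removed) and -0.17 (without TMAO replicate 2), Pcna at -0.0076 (library size only), -0.00080 (no count filter), -0.43 (length trend removed) and -0.060 (without control replicate 3), Rfc4 at -0.14 (length trend removed), Pola2 at 0.0054 (upper quartile scaling), 0.037 (without TMAO replicate 1) and 0.0070 (without control replicate 2) and Pold1 at -0.13 (GC trend removed). Over the fits without 1 library, Cdt1 ran from -0.093 to 0.080, Pcna from -0.060 to 0.088, Pola2 from -0.079 to 0.037 and Gins3 from -0.17 to 0.39. None of the 31 called genes turned. Same-numbered libraries correlated at 0.032, 0.13 and -0.067 in their deviations from the group means, so the numbers were not taken to pair them. With the replicate block, 23 genes were higher and 9 lower, Gins4 being added (log2 fold change -0.34, adjusted p = 0.0244), and the median log2 fold change was 0.39. Depth limits the genes near 1 to 3 CPM, among them Fen1, Ung, Orc1 and Cdc6.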

Other observations

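De novo nucleotide synthesis, which feeds both RNA and DNA, was divided: of 17 genes, 7 rose and 7 fell, with a median log2 fold change of -0.067. That was 82.4% called, beside 65.7% of all genes tested. Ctps, which makes CTP, was higher, at 13.1 ± 1.95 CPM in TMAO and 6.37 ± 0.376 CPM in control libraries (log2 fold change 1.04, edgeR adjusted p = 9.88e-05), and Impdh1, of guanine nucleotide synthesis, as well, at 93.7 ± 7.92 CPM in TMAO and 67.3 ± 4.31 CPM in control libraries (0.48, 0.00129). Prps2, which makes the ribose phosphate donor, was lower, at 8.26 ± 0.845 CPM in TMAO and 29.2 ± 0.971 CPM in control libraries (log2 fold change -1.82, edgeR adjusted p = 4.76e-07), and the purine enzyme gene Paics as well, at 67.1 ± 1.48 CPM in TMAO and 114 ± 1.92 CPM in control libraries (-0.76, 1.38e-05).

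Among 10 other genes of replication-coupled chromatin, 5 rose and 2 fell (70% called, near the 65.7% of all genes tested). Pclaf, which encodes a Pcna-binding protein, was 9.27-fold higher, at 15.4 ± 0.874 CPM in TMAO and 1.66 ± 0.410 CPM in control libraries (edgeR adjusted p = 2.8e-07), although Pcna itself did not pass the test. Asf1b, a histone chaperone gene, averaged 13.8 ± 0.972 CPM in TMAO and 6.38 ± 0.369 CPM in control libraries (edgeR adjusted p = 2.27e-05). Dnmt1, the maintenance methyltransferase that Uhrf1 recruits, was lower, at 70.0 ± 13.7 CPM in TMAO and 122 ± 7.76 CPM in control libraries (log2 fold change -0.80, edgeR adjusted p = 0.000375), the opposite direction to Uhrf1 (2.11). Supt16, a subunit of the FACT chaperone, averaged 31.6 ± 11.3 CPM in TMAO and 66.0 ± 2.12 CPM in control libraries (log2 fold change -1.06, edgeR adjusted p = 0.00107), and its partner gene Ssrp1, named after its value was seen, had a log2 fold change of 0.38 (edgeR adjusted p = 0.00342). The values of Supt16 spread widely with TMAO, at 43.3, 20.9 and 30.6 CPM.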
